A study of Mus musculus with 8 samples.

Results

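A group of 9 calcium handling genes was followed in single myocardial cells of the mouse heart tube: Hrc, Casq2, Calr, Ryr2, Speg, Atp2a2, Pln, Slc8a1 and Cacna1c. Hrc and Speg had been selected on their measured signal, which was lower in the Sox17 knockout cells of these same arrays, and the other genes were named for their function around them. The differences of Hrc and Speg between genotypes are therefore a description of how they were picked. The 9 genes were read by 15 probes, out of 24336 gene names and 55681 probes on the array.

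A contracting heart cell cycles calcium between its cytoplasm and the sarcoplasmic reticulum, its internal calcium store. Calcium that enters through the L-type channel opens the ryanodine receptor of the store, and the released calcium drives contraction. It is then pumped back into the store by the SERCA pump, which phospholamban restrains, or is carried out of the cell by the sodium-calcium exchanger, while proteins in the lumen of the store bind and buffer it. The first heartbeats of the mouse embryo begin around the stage examined here.

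The cells came from the heart tube at embryonic day 8.5, when the embryos had 9 somites. The 4 control cells (WT, Mesp1+/+ Sox17flox/flox) had intact Mesp1 and floxed Sox17 alleles, with no Cre. The 4 knockout cells (KO, Mesp1Cre/+ Sox17flox/flox) carried the same floxed Sox17 alleles together with Mesp1-Cre, a Cre inserted at Mesp1 and active in early mesoderm, so that they had 1 Mesp1 allele less as well. Sox17 encodes an HMG-box transcription factor, and its deletion by Mesp1-Cre falls in the endocardial as well as the myocardial lineage. The comparison asks whether transcripts of myocardial cells differ in such embryos. Cells were assigned to the myocardium by PCR of marker genes, and embryos were genotyped from their tails. No embryo was named for any cell, so each genotype was 1 sample of cells, no test was made, and SD is the spread between cells. The WT arrays shared 1 slide and the KO arrays a second one, so that genotype and slide cannot be told apart.

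The label of the cells was borne out by their transcripts, since 10 of 10 myocardial markers were detected, that is well above the array's background, in all 8 cells. Their summed signal was 510327 to 868668 in WT and 682991 to 962818 in KO cells. A WT cell had 3 to 5 of 13 endothelial markers and a KO cell 2 to 3, and 11 of the 13 never passed the floor of 50 set on the scaled signal. Their summed signal, in which each marker under the floor counts as 50, was 1125 to 1293 in WT and 1048 to 1266 in KO cells. The endothelial marker Kdr was detected in all 8 cells, at 524.8 to 693.1 in WT and 442.8 to 666.5 in KO cells. At most 1 of 7 erythroid, 6 endoderm or 5 proepicardial markers was detected in a cell, 3 of 4 smooth muscle markers were detected in every cell, and 0 of 4 skeletal muscle markers in any. Sox17 itself was detected in 0 of 8 cells, WT included, so the arrays do not check the deletion. The share of probes detected was 19.6% to 26.0% in WT and 17.1% to 24.3% in KO cells, and its part in the results below was not tested.

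The array's 60-base probes decide what each value reports, and those on which the results turn are shown by 30 of their bases, read 5′ to 3′ as the deposited files give them (build mm9). Hrc was read by 1 probe, at chr7:52594281-52594340 on the plus strand, starting at base 2368 of its transcript. The last 30 bases are given, with the AATAAA hexamer, the usual signal for polyadenylation, in capitals.
Hrc: atctatttctttgAATAAAtgtgctcctag
The hexamer was present on the probe strand in 5602 of all 55681 probes (10.1%) and in 1 of the 15 probes of these genes.

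Speg had 3 probes on the plus strand of chromosome 1, which did not read alike, and the first 30 bases of each are given. The probes at base 2510 (chr1:75398953-75399012) and base 3276 (chr1:75401022-75401081) lay on the same transcript, and that at base 9735 (chr1:75428730-75428789) was assigned to another transcript variant.
Speg, base 2510: tcctggctgctgaacggggcgatgctggtt
Speg, base 3276: acacgcgctgtctgagaatgagagaggtag
Speg, base 9735: tttattgccttttgtggagtttcctttcta

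Atp2a2 and Cacna1c, both on the minus strand, had 2 probes each along 1 transcript, one of which was detected in few cells. Those of Atp2a2 lay at base 2567 (chr5:122910660-122910719) and base 4073 (chr5:122903704-122903763), and those of Cacna1c at base 6960 (chr6:118544079-118544138) and base 13723 (chr6:118537316-118537375).
Atp2a2, base 2567: tcgagttgaaccttcccacaagtctaagat
Atp2a2, base 4073: gttccacactgtattattgtaacttattta
Cacna1c, base 6960: tgacgcctgcgacatgacaatagaggagat
Cacna1c, base 13723: ctgtgtgagacgctactgtatattcctgta

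Hrc, the histidine-rich calcium binding protein of the store's lumen, was detected in all 8 cells. Its scaled signal was 79.6, 15415, 2976 and 6778 in WT cells 1 to 4. It was 113.8, 80.9, 120.7 and 217.5 across KO cells 1 to 4. WT cells 2, 3 and 4 were far above every KO cell, whereas WT cell 1 was the lowest of all 8 cells, so the genotypes overlapped. The mean log2 signal was 11.12 ± 3.35 for WT against 6.96 ± 0.59 for KO (SD over n = 4 cells), a difference of -4.16, or 17.9-fold. It was -5.76 without WT cell 1 and -3.23 without WT cell 2, the extremes when any 1 cell was left out. The spread thus lay almost wholly among the WT cells, and the 4 KO cells held the signal within a narrow range above the floor.

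The other proteins of the lumen did not show this pattern. Calr encodes calreticulin, a calcium-binding chaperone of the endoplasmic reticulum, and its probe (chr8:87366192-87366251, minus strand) was detected in all 8 cells. Its signal was 24677, 3890, 5145 and 2719 across WT cells 1 to 4 and 17397, 16887, 34.4 and 2320 across KO cells 1 to 4. The genotypes overlapped throughout, and KO cell 3 alone fell under the floor. The difference was -1.33 on the log2 scale (12.56 ± 1.40 for WT against 11.24 ± 3.97 for KO, SD over n = 4 cells), less than the SD of either group, and it was 0.54 without KO cell 3.

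Casq2, the calsequestrin of cardiac muscle and the main calcium buffer of the adult store, was detected in 1 cell. Its probe (chr3:101949827-101949884, plus strand) read 28.4 in KO cell 1, under the floor, and 1.77 to 3.34 in the 7 other cells, where it was not well above background. No fold is given for it.

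Ryr2, the ryanodine receptor through which the cardiac store releases calcium, was detected in 3 WT and 2 KO cells. Its probe (chr13:11645812-11645871, minus strand, base 16311 of the transcript) read 2.50, 3868, 2053 and 1025 across WT cells 1 to 4 and 225.0, 1585, 3.05 and 2.49 across KO cells 1 to 4. WT cell 1, the cell lowest in Hrc, was also without detected Ryr2, and KO cell 2 lay within the range of the WT cells that had it. The mean log2 signal was 9.64 ± 2.78 for WT against 7.43 ± 2.36 for KO (SD over n = 4 cells). The difference of -2.21 lay just short of the 5-fold size rule (2.32 on the log2 scale) and within the SD of both groups. Its extremes were -3.54 without WT cell 1 and -1.45 without WT cell 2.

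Speg, a kinase of striated muscle that associates with the ryanodine receptor and the junctions between surface membrane and store, was read highest by its probe at base 3276. The signal there was 2103, 150.0, 942.0 and 3991 in WT cells 1 to 4, all detected. In KO cells 1 to 4 it was 19.0, 11.0, 12.9 and 4.18, and only KO cell 1 was well above background. All 4 KO cells were thus under the floor and below all 4 WT cells. The mean was 10.03 ± 2.05 in WT cells (SD between cells, n = 4) against the floor of 5.64, a difference of -4.38, or at least 20.9-fold. Its extremes were -5.32 without WT cell 2 and -3.74 without WT cell 4.

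The remaining probes of Speg divided the WT cells differently. At base 9735, the signal was 18.4, 10232, 10.5 and 3424 across WT cells 1 to 4 and 38.1, 8.18, 2.92 and 10.8 across KO cells 1 to 4. WT cells 2 and 4 were high there, while WT cells 1 and 3 were detected but under the floor, as was KO cell 1, and the difference was -3.44. At base 2510, the signal was 407.6 in WT cell 1 and 27.5 in WT cell 2, and 1.25 to 5.21 in the 6 cells where it was not well above background. The WT mean exceeded the floor there by at least 1.69-fold and rested on WT cell 1. Each probe of Speg was above the floor in WT cells only, but WT cell 1 was high at bases 2510 and 3276 and WT cell 2 was highest at base 9735.

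**Figure D1:**
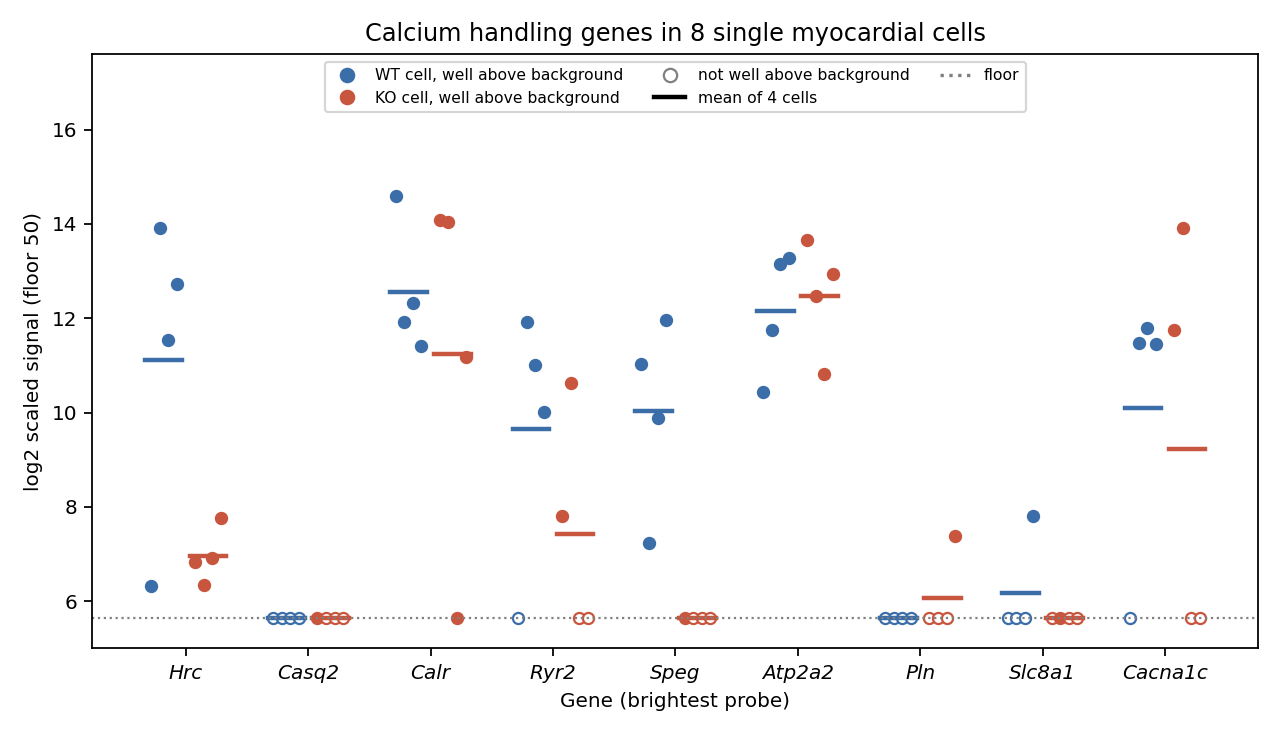
Scaled log2 signal of each gene's brightest probe (vertical axis, floor of 50 at 5.64) in 4 WT cells (blue) and 4 KO cells (red), with cells 1 to 4 from left to right and a bar at the mean of 4 cells. Open circles were not well above background. Speg separates the genotypes, with all KO cells at the floor, while 1 WT cell lies among the KO cells for Hrc and the genotypes overlap for every other gene.

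Atp2a2, which encodes the SERCA2 pump that refills the store, had the narrowest range of signal among the 3 genes detected in all 8 cells. Its brighter probe, at base 4073, read 1390, 3456, 9050 and 9905 in WT cells 1 to 4. It read 13002, 5650, 1796 and 7858 across KO cells 1 to 4. All 8 cells were well above background and the genotypes overlapped. The mean was 12.15 ± 1.33 for WT against 12.47 ± 1.21 for KO (SD over n = 4 cells), a difference of 0.32, or 1.25-fold higher in KO, which is smaller than the spread in either group. Its sign turned to -0.25 without WT cell 1 and to -0.03 when arrays were scaled on all probes. The probe at base 2567 was detected in WT cell 2 (13.0) and WT cell 4 (53.3) and in 0 KO cells.

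Pln, which encodes phospholamban, the small membrane protein that inhibits this pump, was detected in 1 cell. Its probe (chr10:53064944-53065003, plus strand) read 166.7 in KO cell 4 and 1.26 to 3.29 in the 7 other cells. The difference of 0.43 on the log2 scale, at least 1.35-fold, was 0 without KO cell 4. The pump's transcript was therefore read in every cell and that of its inhibitor in 1 of 8, with the limit that the array does not set a level of one probe against another.

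At the cell surface, Cacna1c encodes the pore of the L-type calcium channel. Its probe at base 13723 read 2.51, 2842, 3523 and 2816 in WT cells 1 to 4. It read 3455, 15375, 3.02 and 7.20 across KO cells 1 to 4. Where the channel's transcript was detected, in 3 WT and 2 KO cells, it was well above the floor, and the highest cell was KO. The difference was -0.85 (10.09 ± 2.97 for WT against 9.24 ± 4.24 for KO, SD over n = 4 cells), with extremes of -2.41 without KO cell 2 and 0.35 without KO cell 3. The probe at base 6960 was detected in WT cell 2 alone, at 19.3.

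Slc8a1, the sodium-calcium exchanger of the cardiac cell membrane, was rarely detected by any of its 3 probes, all on the minus strand. The probe at base 1946 (chr17:81844837-81844896) read 223.0 in WT cell 4 and 18.1 in KO cell 2. The probe at base 2059 (chr17:81844210-81844269) was detected in KO cell 1 alone, at 10.2, and that at base 3126 (chr17:81787868-81787927) in KO cell 3 alone, at 17.3. Only WT cell 4 passed the floor, and the difference at base 1946, -0.54, was 0 without it.

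**Figure D2:**
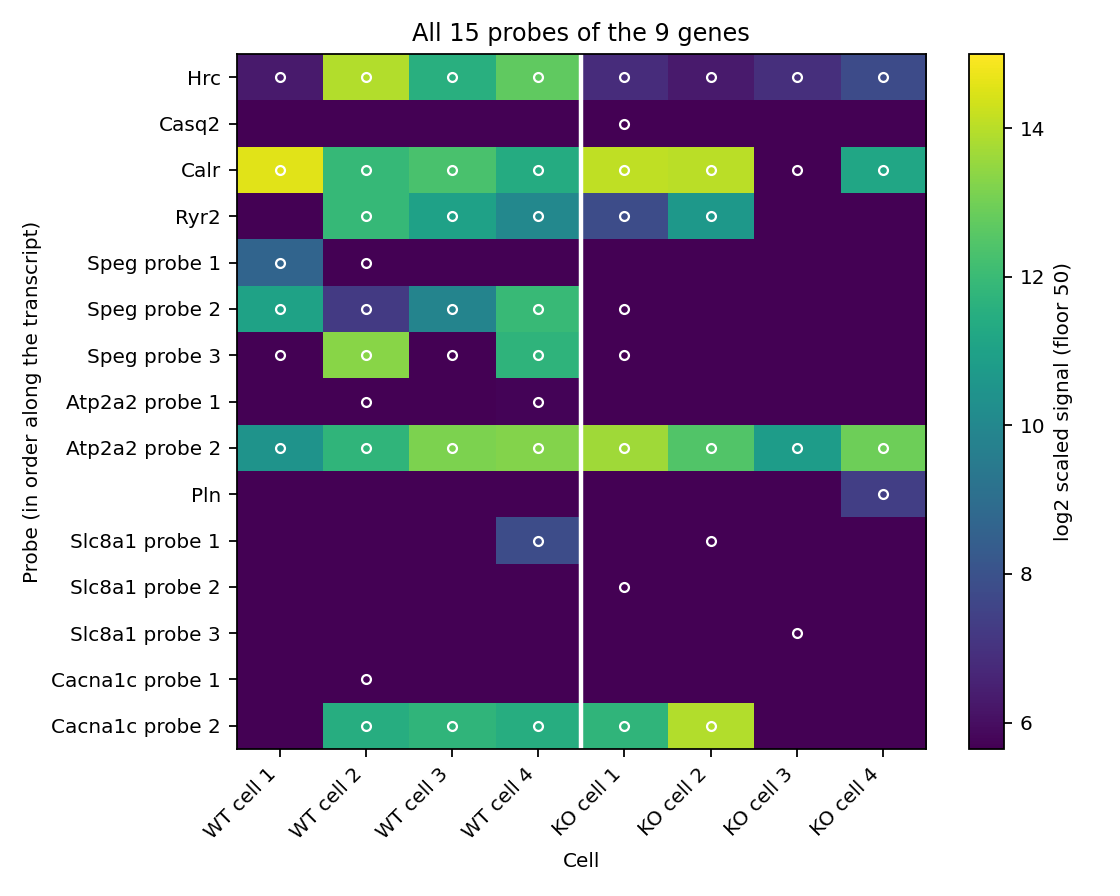
Scaled log2 signal (colour, floor of 50 at 5.64) of all 15 probes (rows, in order along the transcript within a gene) in the 8 cells (columns, WT left of the white line, KO right), with a circle where the probe was well above background. Probes of 1 gene differ in the cells that they read, and the 3 probes of Slc8a1 share no cell, while 8 probes were detected in 1 or 2 cells.

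Counted over probes, 5 of the 15 were present, that is detected in each cell of WT, of KO or of both, and 3 were detected in all 8 cells (those of Hrc and Calr, and Atp2a2 at base 4073). A signal at least 5-fold lower in KO cells was read by 3 of these 5 probes, those of Hrc and of Speg at bases 3276 and 9735, among which Hrc and Speg had been chosen for it, so that nothing is read from this count. The same held for 6.88% of all 7467 present probes. No present probe of these genes was at least 5-fold higher, against 1.75% of all present probes. The Speg probe at base 3276 was the only one with all 4 KO cells under all 4 WT cells, as were 2.26% of present probes, and none had the KO cells over the WT cells, as did 3.27%. The probe past the size rule by least was that of Speg at base 9735 (-3.44, or at least 10.9-fold), and the nearest short of it was that of Ryr2 (-2.21), which was not present.

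Counted over genes by the brightest probe, 4 of the 9 were present: Hrc, Speg, Calr and Atp2a2. The median difference of the 9 genes was -0.85, with 6 lower in KO, 2 higher and 1 at 0, but it includes Hrc and Speg, which were picked for being lower. Over the 7 other genes the median was -0.54, with 4 lower, 2 higher and 1 at 0. This median is the value of Slc8a1, which rests on WT cell 4 alone and was 0 without that cell. Of the 12121 genes on the array detected in at least 1 cell, 44.5% were lower in KO and 32.5% higher, with a median of 0. The median of the 9 moved from -2.26 without KO cell 2 to 0 without KO cell 3, so that it depends on single cells.

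**Figure D3:**
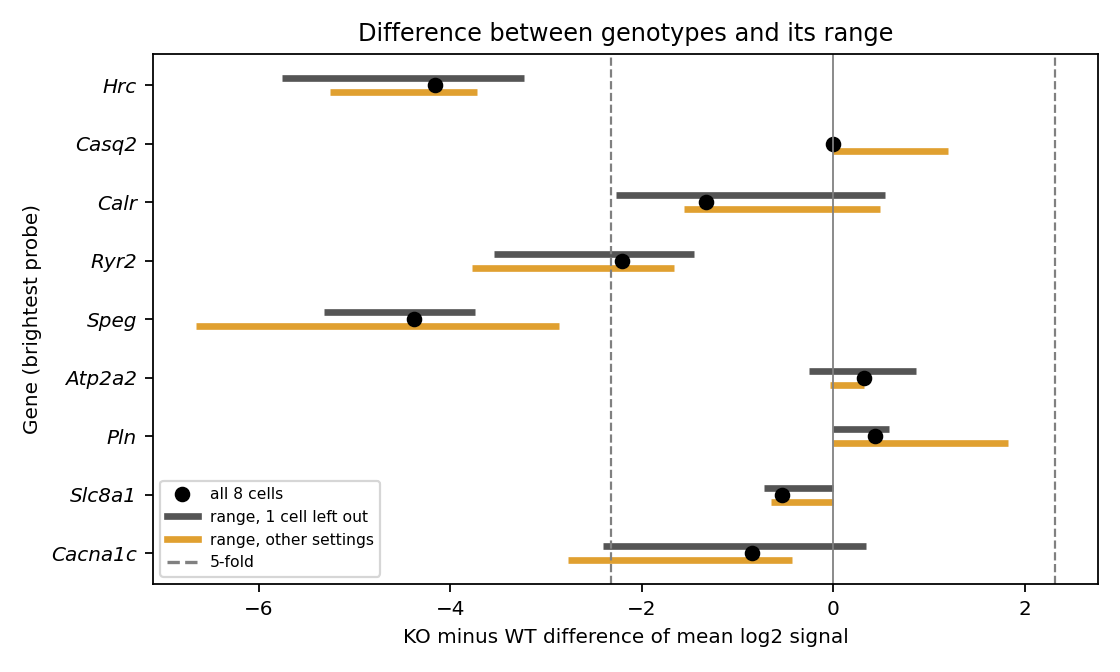
Difference of mean log2 signal, KO minus WT, for each gene's brightest probe (points), with its range when 1 cell is left out (grey) and under other processing settings (orange). Broken lines mark 5-fold. The ranges of Hrc and Speg stay past the lower 5-fold line, that of Ryr2 crosses this line, and those of Calr, Atp2a2 and Cacna1c reach both sides of 0.

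Cells of 1 genotype differed in how many of these genes were detected. In WT cells 1 to 4, 4, 6, 6 and 7 of the 9 genes were detected by their brightest probe. In KO cells 1 to 4, 7, 6, 3 and 4 were detected by it. By this count KO cell 1 matched the fullest WT cell, and WT cell 1 matched KO cell 4. The count leaves out the dimmer probes, by which Slc8a1 was also detected in KO cells 1 and 3. The mean signal of the 9 genes in a cell, relative to its mean over the 8 cells, was -0.68, 0.94, 1.10 and 1.47 across WT cells 1 to 4 and 0.00, 0.36, -2.16 and -1.03 across KO cells 1 to 4 on the log2 scale. This mean includes Hrc and Speg, which were picked for being lower in KO, so nothing is read from its difference between genotypes. The lowest cell, KO cell 3, also had the fewest probes detected overall (17.1%), although KO cell 2, with 17.2%, did not share its low mean. The genes did not all follow this mean, since WT cell 1 was lowest of the WT cells in Hrc and Atp2a2 but highest in Calr. The part of detection in these means was not tested.

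Ryr2 and Cacna1c, the release channel and the surface channel that opens it, were detected in exactly the same cells, namely WT cells 2, 3 and 4 and KO cells 1 and 2. Of 764 genes whose brightest probe was detected in exactly 5 cells, 44 (5.76%) had this set of cells. Within those 5 cells the order of their signals differed, since Ryr2 was highest in WT cell 2 and Cacna1c in KO cell 2. In WT cell 1, KO cell 3 and KO cell 4, neither was well above background, whereas Atp2a2 was read at 1390, 1796 and 7858.

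In these pairs of probes along 1 transcript, the later probe was the one detected more often, in 8 against 2 cells for Atp2a2, in 5 against 1 for Cacna1c, and in 5 against 2 for Speg at bases 3276 and 2510, which lie closer together than 1000 bases. The pairs of Atp2a2 and Cacna1c were set beside the array as a whole after the values had been seen. Of 1642 transcripts with 2 probes at least 1000 bases apart and a detected probe, the later probe was detected in more cells for 884 (53.8%) and the earlier for 631 (38.4%). The cDNA was primed at the poly(A) end, and its part in which probes were detected was not tested.

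The other genes of calcium handling were read from a list of 85 genes, all on the array. By the brightest probe, 65 were detected in at least 1 cell, 20 were present and 11 were detected in all 8 cells. Of the 20 present genes, 2 were at least 5-fold lower in KO cells (Cacna2d2 and Calm2) and 3 at least 5-fold higher (Tmem38a, Srl and Rcn3), while 10.8% and 2.69% of the 3378 present genes on the array passed the rule in these directions. The median difference was -0.02 over the 65 detected genes and 0 over all 85. Of the 65 genes, 33 were lower in KO, 23 higher and 9 at 0, the last with all cells at the floor. Both medians are held near 0 by signals at the floor, and over the 11 genes detected in all 8 cells the median was -0.36. Tmem38a and Srl were present through the KO cells only and Cacna2d2 through the WT cells only, so that they passed the filter by the genotype in which they were high.

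Among genes of release and store, 13 of 18 were detected in at least 1 cell, and Tmem38a and Srl passed the size rule. Tmem38a encodes TRIC-A, a cation channel of the sarcoplasmic reticulum that accompanies calcium release. It was not well above background in WT cells 1 and 2, read 3711 and 274.4 in WT cells 3 and 4, and 4079, 14661, 2388 and 10308 across KO cells 1 to 4. It was thus detected in every KO cell, and WT cell 3 lay within the KO range. The difference was 4.79 (7.81 ± 2.94 for WT against 12.60 ± 1.20 for KO, SD over n = 4 cells). Srl encodes sarcalumenin, a calcium-binding protein of the store's lumen that stabilises the pump. It was not well above background in WT cells 1 and 4, read 2256 and 4955 in WT cells 2 and 3, and 16887, 8613, 3408 and 886.7 across KO cells 1 to 4, a difference of 3.49. Fkbp1a, the FK506-binding protein 12 that binds ryanodine receptors, was detected in all 8 cells with a difference of 0.67, less than the SD of either group (1.06 in WT and 1.89 in KO).

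Of 11 further pumps and exchangers, 7 were detected in at least 1 cell and 0 passed the size rule. Slc8a3, another sodium-calcium exchanger, was detected in all 8 cells, at 498.8 to 4817 in WT and 536.2 to 3368 in KO cells, with a difference of 0.12. Atp2a3, which encodes SERCA3, was detected in all 8 cells but passed the floor only in KO cell 4, at 56.0. The differences of the pump and exchanger genes spanned the narrowest range of the 5 roles, with many of their signals at the floor.

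Of 20 surface channel genes, 13 were detected in at least 1 cell, and Cacna2d2 was the only one past the size rule. It encodes an auxiliary subunit of voltage-gated calcium channels. Its brighter probe read 23.5, 11478, 8359 and 4060 across WT cells 1 to 4 and 5251, 14.1, 16.1 and 7.55 across KO cells 1 to 4. As with Hrc, WT cell 1 was low, but here KO cell 1 was as high as the WT cells. The difference was -3.71 (11.04 ± 3.65 for WT against 7.32 ± 3.36 for KO, SD over n = 4 cells), and it was -1.33 at the other probe. Orai3, a pore subunit of store-operated calcium entry, was detected in all 8 cells with a difference of -0.50.

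Of 23 sensors and kinases, 20 were detected in at least 1 cell. Calm2, 1 of the genes for calmodulin, the cytoplasmic calcium sensor, read 2032, 2968, 13890 and 11102 across WT cells 1 to 4 and 502.5, 46.5, 4612 and 6208 across KO cells 1 to 4. KO cells 1 and 2 were the lowest, and KO cells 3 and 4 lay within the WT range. The difference was -2.58 and fell to -1.18 without KO cell 2, and the other probe gave -2.49. The genes of calmodulin code for the same protein and share sequence, so that cross-hybridisation between them cannot be told apart. Ppp1ca and Ppp1cc, catalytic subunits of the phosphatase that acts on phospholamban among others, were detected in all 8 cells with differences of -0.77 and -0.36, both within the spread between cells. Ppp1cb, another catalytic subunit, went the other way and was detected in 7 cells, all but WT cell 1. Its difference was 2.22, just short of the size rule and less than the SD in WT cells (2.55).

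Of 13 luminal chaperones and calcium-binding proteins, 12 were detected in at least 1 cell. Rcn3, a reticulocalbin with calcium-binding EF hands, read 18.5, 3500, 1589 and 3897 across WT cells 1 to 4 and 14218, 13211, 12535 and 4099 across KO cells 1 to 4. All KO cells were above all WT cells, although the closest pair, KO cell 4 and WT cell 4, differed little. The difference was 3.28 (9.99 ± 2.96 for WT against 13.27 ± 0.85 for KO, SD over n = 4 cells) and 1.83 without WT cell 1, which is short of the size rule. Hspa5 and Hsp90b1, abundant chaperones of the endoplasmic reticulum, were detected in all 8 cells with differences of -1.31 and 0.38, and each had 1 cell far below the others, KO cell 1 for Hspa5 (17.0) and WT cell 1 for Hsp90b1 (51.4).

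**Figure D4:**
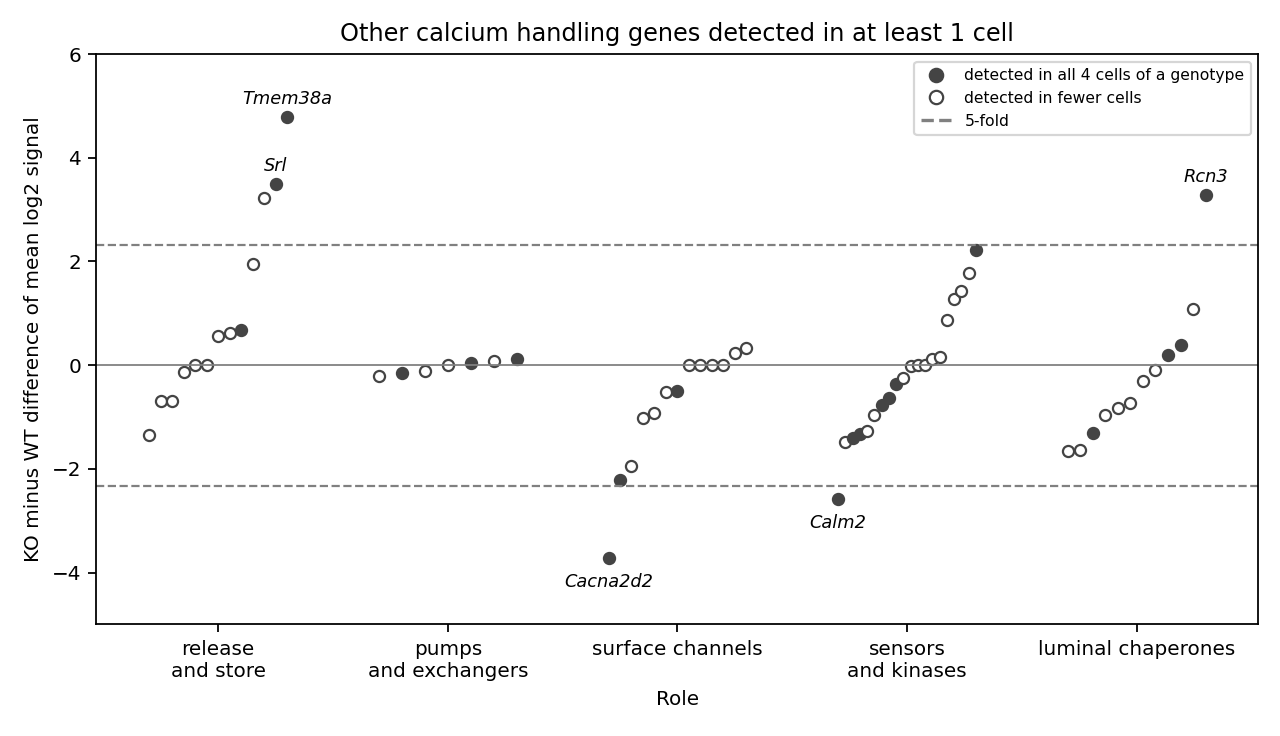
Difference of mean log2 signal, KO minus WT, of the 65 other calcium handling genes detected in at least 1 cell, by role. Filled points were present and broken lines mark 5-fold. Cacna2d2 and Calm2 lie below the lower line and Tmem38a, Srl and Rcn3 above the upper one, where an open point marks Fkbp1b (3.23), detected in 2 KO cells and so not counted.

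The pattern of Hrc over the 8 cells was compared with 1480 probes that were detected and above the floor in every cell. The Pearson correlation over 8 cells is a description, since the cells share 2 slides and the same amplification, and each r includes the difference between genotypes. Sh3bgrl3, a small thioredoxin-like protein, was most like Hrc (r = 0.94), with 609.6, 18887, 3933 and 3131 across WT cells 1 to 4 and 223.7 to 331.2 in KO cells. Like Hrc, it was highest in WT cell 2 and low in WT cell 1, but WT cell 1 stayed above the KO cells. Fam89b (0.86), Derl2 (0.81), Arf5 (0.80) and Kdm5c (0.80) followed. Within the group of calcium handling genes first followed with Hrc, the brightest probe of Ryr2 was most like Hrc (0.71). Next came Slc8a1 (0.47), Speg (0.45), Cacna1c (0.39), Atp2a2 (0.27), Calr (-0.07) and Pln (-0.16). The longer list of other calcium handling genes was not ranked with this group, so a gene of that list may be more like Hrc than Ryr2.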

How the data were processed

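The deposited files were scanner output of Agilent Feature Extraction 12.0.2.2, 1 file per array and cell, with intensity values on a linear scale. Per the file headers and the study's methods, the authors amplified single-cell cDNA, labelled it with Cy3 and took the software's background-corrected signal. The authors set levels under 50 to 50, scaled arrays on the 50th percentile and subtracted gene lists, a last step not used here. The software's other flags, deposited beside the intensity, were read as given.

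Outlier spots (146 to 220 per array) and control spots were left out, saturated spots kept (0 found), and the log2 signals of a probe's spots averaged. A probe was detected when well above background on at least 50% of its spots. Arrays were shifted by -0.76 to 0.68 to a common 50th percentile over the 5301 probes detected on all 8, and values under 50 then set to 50. These values have no order among themselves. The lowest signal well above background was 2.70 to 14.0 per array. Negative control spots were well above background in 0% to 1.3% of 308. The number of arrays limits the precision, and the median SD between cells of present probes was 0.74 in WT and 0.71 in KO cells. A gene was represented by the probe of highest mean signal. Where all cells of a genotype lay at or under the floor, whether detected or not, a fold was given as at least the bright mean over the floor.

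The genes and lists were chosen with earlier results of these data known. Named were all 9 genes with every probe, each other calcium handling gene at least 5-fold different, the up to 3 brightest per role detected in all 8 cells, and the 5 genes most correlated with Hrc. Fkbp1b and Ppp1cb were named outside this rule. Gene names were those of the array design. A RefSeq table (GRCm38) was used for synonyms only, and exon annotation of mm9 was not used here. Alternatives covered scaling, background correction (normexp with offset 50, limma 3.58.1 in R 4.3.3), floor, detection, summary of cells, choice of probe, size rule and single cells left out. Python 3.11.15, numpy 2.4.6 and pandas 2.3.3 were used, and the code was tested on simulated data. No table column was left without a sample.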

Additional observations from a re-analysis of the deposited data

Results flagged for a closer look

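For all 15 probes of the 9 genes, the brightest probes of the other calcium handling genes named and the 5 genes most like Hrc (27 genes, 33 probes), the gap between an extreme cell and the nearest other of its genotype was divided by the range of the 4 cells. Fkbp1b and Ppp1cb were not among these genes. Of 51 groups of 4 cells not wholly at the floor, 12 passed Dixon's critical value for 4 values, where chance alone passes about 5% of groups. Cells at the floor are equal by construction, which makes the ratio 1 where a single cell passes the floor. This held for 8 of the 12, each with the 3 other cells of the genotype at the floor. Among the 9 genes these were Speg at base 2510 in WT cell 1 (signal 407.6, ratio 1), Atp2a2 at base 2567 in WT cell 4 (53.3, ratio 1), Pln in KO cell 4 (166.7, ratio 1) and Slc8a1 at base 1946 in WT cell 4 (223.0, ratio 1). Among the other calcium handling genes they were Atp2a3 in KO cell 4 (56.0, ratio 1), Cacna2d2 in KO cell 1 (5251, ratio 1), Orai3 in WT cell 2 (732.4, ratio 1) and Orai3 in KO cell 1 (184.6, ratio 1). Cacna1c at base 13723 in WT cell 1 lay at the floor, far below the 3 other WT cells (ratio 0.947). Hsp90b1 in WT cell 1, at 51.4, lay below the 3 other WT cells (ratio 0.912), and Rcn3 in KO cell 4, at 4099, below the 3 other KO cells (ratio 0.899). Slc8a3 in WT cell 1, at 4817, lay above the 3 other WT cells (ratio 0.899). Why these cells stand apart was not tested.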

How the results depend on the processing

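The difference of Hrc kept its sign and stayed past 5-fold under all alternatives, from -5.26 (median of cells) to -3.72 (normexp and quantile normalization), and from -5.76 to -3.23 with 1 cell left out. That of Speg did so too, from -5.32 to -3.74 with 1 cell left out, but was -6.66 without the floor, where KO cells keep values under 50, and -2.86 as the mean of all 3 probes, since the probe at base 2510 is low in most cells. Both genes had been picked for being lower in KO on these same arrays, so their stability is no separate support for a difference. The median of the 9 genes ranged from -2.26 to 0 with 1 cell left out. The probes of these genes at least 5-fold lower (3) became 1 when detection in all 8 cells was required, which removes Speg, and 2 to 5 with 1 cell left out, 5 without WT cell 1. With a cell left out, presence was judged on the remaining cells, which loosens the filter. Without WT cell 1, Ryr2 (-3.54) and Cacna1c (-2.33) became present and passed the size rule. None became 5-fold higher under any alternative. Of the other calcium handling genes, 2 were lower, and 1 when detection in all 8 cells or 10-fold was required. With 1 cell left out the count was 1 to 4, with 4 without WT cell 2 or KO cell 1 and 1 without WT cell 3, WT cell 4 or KO cell 2. The 3 higher genes became 1 when detection in all 8 cells was required and were 2 to 4 with 1 cell left out. The cause was not tested where none is given. The present probes of the array at least 5-fold lower (514) and higher (131) became 90 and 47 when detection in all 8 cells was required and 1010 and 278 with no filter. They were 874 and 240 without the floor, 860 and 208 with detection in 3 of 4 cells, 220 and 53 at 10-fold, 500 to 919 and 120 to 248 with 1 cell left out. The median difference of probes detected in all 8 cells was 0.15, and it was 0.00 with scaling on all probes, 0.32 with quantile normalization and 0.42 with normexp, against which the small differences of Atp2a2 and Cacna1c should be read. No paired analysis was possible because cells share only a replicate number and no value comes from a test. Signals near background limit Casq2, Pln and Slc8a1, for which a missing signal does not show a missing transcript.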
